A study of Mus musculus with 12 samples.

Results

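The Janus kinases (JAKs) are a family of 4 tyrosine kinases, encoded in the mouse by Jak1, Jak2, Jak3 and Tyk2. Their 4 rows were taken by gene symbol from the 23472 genes of a count table of poly-A RNA. The RNA came from long-term haematopoietic stem cells, or LT-HSCs, a scarce marrow population that maintains blood formation over the life of the animal. All 4 passed the filter on low counts, as did 13184 genes in all. The 12 libraries came from bone marrow of C57BL/6 mice. The 6 wt libraries were from cre-negative animals and the 6 libraries labelled Jak1 KO were from cre-positive animals. Both groups had received poly(I:C), a synthetic double-stranded RNA. It provokes an interferon response and is widely used to switch on an interferon-inducible cre. There were 4 doses, given 4 to 6 weeks before the marrow was taken. Controls therefore carried the same exposure to poly(I:C), and the groups differed in cre status as well as in the intended loss of Jak1, so effects of cre and of a deletion cannot be told apart. The labels name neither the promoter that drives cre nor the part of Jak1 that is removed. They also do not say that each library came from a separate animal or culture, so that the p-values below measure the spread between these libraries, which may be technical in part.

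JAKs sit on the inner face of cytokine receptors that have no enzyme activity of their own. When a ligand draws receptor chains together, the kinases on them phosphorylate each other, the receptor tails and then STAT transcription factors, which enter the nucleus and switch on target genes that include their own inhibitors, the SOCS proteins. JAK1 serves the interferon receptors, the gp130 cytokines and the common gamma chain cytokines. JAK2 serves single-chain receptors such as that for erythropoietin, and is needed for blood formation. JAK3 binds the common gamma chain and is best known from lymphocytes. TYK2 pairs with JAK1 or JAK2 on receptors for type I interferon and for interleukins of the IL-12 and IL-10 groups.

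In the GENCODE annotation of GRCm38 (mm10, the build in the submitters' processing notes) Jak1 spans 112.9 kb on the minus strand of chromosome 4, from 101152367 to 101265282. Jak2 spans 61.3 kb on the plus strand of chromosome 19, from 29251828 to 29313080. Jak3 is the most compact, at 14.3 kb on the plus strand of chromosome 8, from 71676296 to 71690575, and Tyk2 spans 27.2 kb on the minus strand of chromosome 9, from 21104068 to 21131243. The longest transcripts of Jak1, Jak2 and Tyk2 have 25 exons each, and that of Jak3 has 22. Some exons overlap those of another gene, and the strand setting of the read counting is not given in the sources used here. Jak1 exons overlap Raver2 on the opposite strand, which was counted at 98 to 516 reads per library, Jak3 exons overlap Insl3 on the same strand, counted at 6 to 126 reads, and Tyk2 exons overlap the antisense gene 1700084C06Rik. Reads from these stretches cannot be told apart from reads of the kinase, while Jak2 exons overlap no other annotated gene.

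The start regions of the 4 genes differ in base composition, and the richest and the poorest in CpG are printed here because they belong to Jak2 and Jak3, the 2 members whose levels differed between sets of libraries as described below. Both are RefSeq sequences of GRCm38.p6, 300 bases that end shortly after the annotated start, read 5′ to 3′ on the strand of the gene, with each CpG dinucleotide in capitals. The Jak2 window lies at chr19:29251553-29251852 on the plus strand and the Jak3 window at chr8:71676133-71676432 on the plus strand.
Jak2: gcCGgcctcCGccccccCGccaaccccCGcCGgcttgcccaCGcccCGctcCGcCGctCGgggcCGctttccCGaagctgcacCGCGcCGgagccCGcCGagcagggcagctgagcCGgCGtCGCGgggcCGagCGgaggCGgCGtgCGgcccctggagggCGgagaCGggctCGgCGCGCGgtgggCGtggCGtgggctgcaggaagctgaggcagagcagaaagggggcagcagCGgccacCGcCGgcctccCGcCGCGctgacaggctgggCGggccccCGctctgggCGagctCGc
Jak3: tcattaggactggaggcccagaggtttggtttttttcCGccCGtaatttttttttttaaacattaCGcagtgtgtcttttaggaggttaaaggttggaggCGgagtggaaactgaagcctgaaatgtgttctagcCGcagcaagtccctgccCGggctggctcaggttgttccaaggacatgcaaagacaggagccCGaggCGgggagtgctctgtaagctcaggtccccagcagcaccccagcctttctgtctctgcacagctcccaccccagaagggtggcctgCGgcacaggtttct
Jak2 had 44 CpG dinucleotides and 81% G and C in this window, and Jak3 had 9 and 54.3%. The Jak1 window (chr4:101265174-101265473, minus strand) had 29 CpG and 64.7%, and the Tyk2 window (chr9:21131226-21131525, minus strand) had 23 CpG and 58%. Across all 32851 RefSeq start windows of the same length the medians were 7 CpG and 52.7%, so that Jak2 stood at the 97.8 percentile for CpG and Jak3 at the 54.2 percentile. Both strands were searched for the letters of the STAT dimer motif GAS (TTCNNNGAA), which 8.3% of all windows contain, and they are not present in the 4 windows.

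The libraries held 8989965 to 28701855 counts each. Their names in the labels fall into a VD set (replicates 1 to 3 of each genotype) and a ZL set (replicates 4 to 6), and what separated the sets is not stated. The sets stood far apart: the first principal component of log2 CPM, with 58.6% of the variance, divided them, and ribosomal precursor RNA (Rn45s) accounted for 14.8% to 22.6% of VD counts and for 0.511% to 0.950% of ZL counts. Within the ZL set 3 libraries (Jak1 KO 4, wt 6 and Jak1 KO 6) had the lowest sample quality weights in limma-voom, at 0.165 to 0.359. The tests of the kinases were also run without these 3. For each library the deviation of log2 CPM from the mean of its name set was compared with exon length across genes. This deviation was tied to length most strongly in the same 3 libraries, with a Spearman correlation of -0.52 in Jak1 KO 4, 0.38 in wt 6 and 0.45 in Jak1 KO 6. Since each value is relative to the other libraries of the set, the values are not independent. Among the 12 LT-HSC markers examined, such as Procr, Slamf1, Hlf and Mecom, none was at 0 in any library. Their summed level was 2520 to 5021 CPM in wt libraries and 2191 to 4817 CPM in those labelled Jak1 KO. The gene-level count of Jak1 includes reads from any exons left after a deletion, so it does not check the genotype labels.

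All 4 kinases were counted in every library, and Jak1 had the highest mean level. Counts per library ranged from 3041 to 18258 for Jak1, from 334 to 3980 for Jak2, from 651 to 6020 for Jak3 and from 323 to 3448 for Tyk2. To compare genes, normalised CPM (counts scaled to the library total) were divided by the length of all exons of the gene in kb. On that scale the mean level over 12 libraries was 55.0 ± 15.9 CPM per kb for Jak1 (SD), the 93.8 percentile of the 13072 tested genes with a known length. Jak3 followed at 39.2 ± 14.0 CPM per kb (89.9 percentile), then Jak2 at 21.0 ± 10.98 (78.4 percentile) and Tyk2 at 10.9 ± 4.17 (60.1 percentile). Jak3, the kinase best known from lymphocytes, was thus second in these LT-HSC libraries. Markers of lymphocytes were also counted. The summed level of 13 T and NK cell genes was 50.3 to 112 CPM in wt libraries and 53.8 to 224 CPM in those labelled Jak1 KO, most of it from Nkg7 and Lck (means of 58.3 and 14.2 CPM in wt libraries). That of 8 B cell genes was 29.1 to 70.8 CPM and 29.6 to 145 CPM, most of it from Cd79b (means of 41.7 and 54.4 CPM). The highest of both sums were in Jak1 KO 4, the library with the lowest Jak3, and the part of lymphocytes in the Jak3 level was not tested. Cd3e, a chain of the T cell receptor complex, was at 0 counts in 9 of 12 libraries and Ncr1, an NK cell receptor, in 10, the most of the 13 genes. Cd247, Cd4, Klrb1c, Nkg7 and Lck of the same list were at 0 in no library. Means in wt libraries were 4.88 CPM for Cd247, 2.62 CPM for Cd4 and 6.89 CPM for Klrb1c.

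Neighbours in this order were compared within libraries by an exact sign-flip permutation test, two-sided, with p-values adjusted over the 3 pairs. Jak1 exceeded Jak3 by 0.58 on the log2 scale, in 10 of 12 libraries (adjusted exact p = 0.0127), but by 0.37 without the 3 libraries of lowest quality weight, where its call was lost (adjusted exact p = 0.0703). Jak3 exceeded Jak2 by 1.02 in 12 of 12 libraries (adjusted exact p = 0.00147), and Jak2 exceeded Tyk2 by 0.81 in 10 of 12 (adjusted exact p = 0.0127). The sizes of 2 of the 3 steps are given here by name set. In VD libraries the levels of Jak1 and Jak3 differed by 0.041 on the log2 scale (exact p = 0.562), while in ZL libraries Jak1 exceeded Jak3 by 1.12 in 6 of 6. The step from Jak2 to Tyk2 was 1.26 in VD libraries and 0.37 in ZL libraries (exact p = 0.469 in the latter). With the longest transcript in place of all exons, Jak2 exceeded Tyk2 by 0.30 (exact p = 0.238), so these neighbours did not differ beyond their spread on that length. In the 6 wt libraries alone the steps were 0.37, 0.97 and 0.85, and none passed the threshold after adjustment (exact permutation, adjusted p from 0.0938 to 0.188, where the smallest unadjusted p that 6 libraries allow is 0.0312).

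Jak1 reads were counted in every library labelled Jak1 KO, and their level did not pass the test of a difference from wt. In the VD set the wt libraries had 358, 341 and 321 CPM and the libraries labelled Jak1 KO had 375, 408 and 392 CPM. In the ZL set the wt libraries had 435, 364 and 422 CPM and the others 246, 385 and 727 CPM. In the VD set every library labelled Jak1 KO was above every wt library, whereas in the ZL set the highest and the lowest of all 12 values were both labelled Jak1 KO and the groups overlapped. The means were 373 ± 45.3 CPM in wt libraries and 422 ± 160 CPM in those labelled Jak1 KO (SD, with 6 libraries in each group). The fitted log2 fold change, labelled Jak1 KO over wt, was 0.18 (SE 0.20, 95% interval -0.26 to 0.62), with an adjusted p of 0.945 in edgeR's quasi-likelihood test. The interval corresponds to 0.837 to 1.53 times the wt level. Leaving out Jak1 KO 6 moved the log2 fold change to -0.046 and leaving out Jak1 KO 4 moved it to 0.35, neither of which passed the threshold. In VD libraries alone it was 0.24 (SE 0.08, edgeR unadjusted p = 0.00987, adjusted p = 0.195), and in ZL libraries alone 0.14 (SE 0.38).

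Jak2, the kinase of the erythropoietin receptor, was the member with the lowest fitted ratio, though it did not pass the test. In the VD set it had 156, 149 and 157 CPM in wt libraries and 144, 139 and 149 CPM in libraries labelled Jak1 KO. In the ZL set it had 154, 45.8 and 44.9 CPM in wt and 25.2, 58.9 and 44.6 CPM in the others. The VD groups were tight and lay side by side without overlap, and in the ZL set a single library, wt 4, sat at the VD level while the other 5 lay well below it. The spread between the wt VD libraries was a coefficient of variation of 2.66%, close to the 2.35% that counting alone gives at this depth. The log2 fold change over all 12 libraries was -0.51 (SE 0.31, 95% interval -1.18 to 0.16, edgeR adjusted p = 0.945). It was -0.06 in VD libraries alone and -0.96 (SE 0.58) in ZL libraries alone, and leaving out wt 4 moved the pooled value to -0.09.

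Jak3, the common gamma chain kinase, had 266, 240.5 and 270 CPM in wt VD libraries and 233, 286 and 283 CPM in the VD libraries labelled Jak1 KO. In the ZL set it had 189, 129 and 223 CPM in wt and 49.1, 117 and 230.2 CPM in the others. The groups overlapped in both sets, and Jak1 KO 4 was the lowest library by a wide margin. The log2 fold change was -0.20 (SE 0.28, 95% interval -0.81 to 0.41, edgeR adjusted p = 0.945), with 0.089 in VD and -0.46 in ZL libraries alone, and it was 0.036 without Jak1 KO 4.

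Tyk2, the partner kinase at the type I interferon receptor, had 91.4, 89.4 and 78.1 CPM in wt VD libraries and 83.2, 78.0 and 90.7 CPM in the VD libraries labelled Jak1 KO. In the ZL set it had 58.6, 46.8 and 128 CPM in wt and 24.3, 37.1 and 94.0 CPM in the others. The groups overlapped in both sets, and the 2 replicate 6 libraries were the highest of the ZL set in their genotypes. The log2 fold change was -0.31 (SE 0.31, 95% interval -0.98 to 0.36, edgeR adjusted p = 0.945), with 0.0015 in VD and -0.58 in ZL libraries alone. Without wt 6 it was -0.03.

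**Figure D1:**
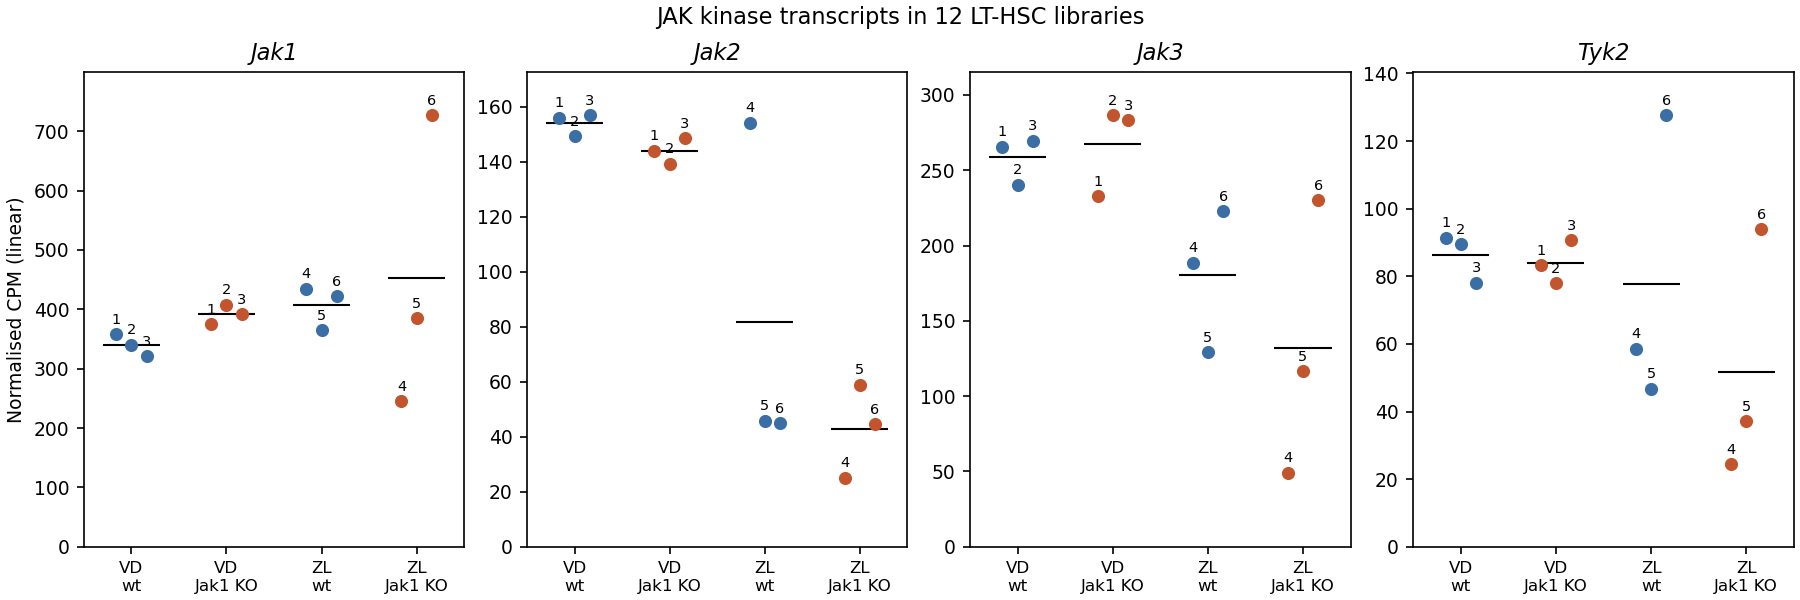
Normalised CPM (vertical axis, linear, each panel with its own scale from 0) of Jak1, Jak2, Jak3 and Tyk2 in each of the 12 libraries, grouped on the horizontal axis by name set and genotype, with blue points for wt, orange points for libraries labelled Jak1 KO, replicate numbers above the points and bars at the mean of 3. The VD libraries form narrow clusters in every panel, the ZL libraries scatter, and Jak2 in wt 4 (154 CPM) stands at the VD level.

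Thus 0 of the 4 members passed the genotype test, against 0.440% of all genes tested, and none passed in DESeq2 (0.961% of genes did) or limma-voom (1.67%). None had an unadjusted p under 0.05 over the 12 libraries in these 3 tools. Without the 3 libraries of lowest quality weight the log2 fold changes were 0.17 for Jak1, -0.25 for Jak2, -0.06 for Jak3 and -0.14 for Tyk2, again with no call (edgeR adjusted p of 0.785 to 0.966). In VD libraries alone 1.15% of tested genes passed and in ZL libraries alone 0.00% did, with no member among them. In the edgeR fit of the ZL libraries 226 genes, or 1.63% of those tested, had an unadjusted p under 0.05. Separation of the VD groups was common: every VD library labelled Jak1 KO lay above every wt VD library for 6.61% of genes, Jak1 among them, and below for 13.2%, Jak2 among them. Among ZL libraries 1.99% of genes were separated upward and 2.34% downward, with no member among them. The difference of the genotype effect between sets (ZL minus VD) was -0.05 for Jak1, -0.83 for Jak2 (SE 0.60), -0.50 for Jak3 and -0.54 for Tyk2 on the log2 scale. None of these interaction terms passed in edgeR (adjusted p of 0.975 to 0.993), as for every other gene (0.00%). An unadjusted p under 0.05 was held by 182 genes, or 1.38% of those tested. On simulated counts of the same design, edgeR recovered 68% of genes changed by 1 on the log2 scale and 99% of those changed by 2. The changed genes were drawn from those with higher mean CPM. The simulated noise was independent between genes, without the length trend of the 3 libraries of lowest quality weight, so recovery in the real libraries may differ.

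**Figure D2:**
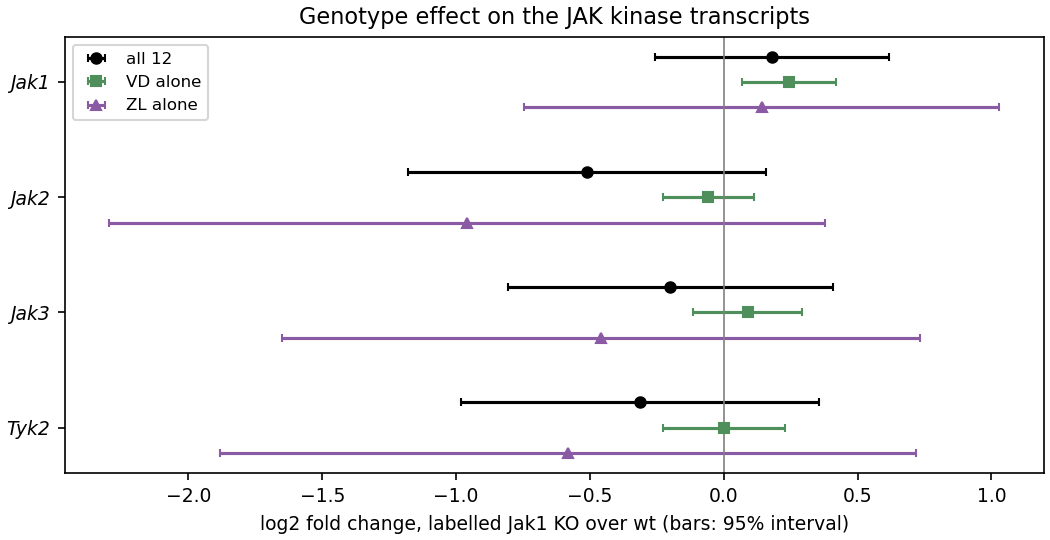
Log2 fold change of each kinase (horizontal axis, labelled Jak1 KO over wt, bars at the 95% interval of the edgeR fit) for all 12 libraries (black circles), VD libraries alone (green squares) and ZL libraries alone (purple triangles). All 4 intervals for the 12 libraries include 0, and the VD intervals are the narrowest, that of Jak1 reaching from 0.07 to 0.42.

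The levels of Jak2 and Jak3 differed between the name sets. Jak2 was lower in ZL than in VD libraries by 1.33 on the log2 scale (SE 0.32, edgeR adjusted p = 0.00244), which is 2.51-fold. Its VD libraries spanned 139 to 157 CPM with a median of 149, and the ZL libraries 25.2 to 154 CPM with a median of 45.4. Jak3 was lower in ZL libraries by a log2 difference of -0.77 (SE 0.28, edgeR adjusted p = 0.0303), with VD libraries at 233 to 286 CPM and ZL libraries at 49.1 to 230.2 CPM. For Jak3 every ZL library lay below every VD library, as for 15.8% of all genes (38.4% separated in either direction), and for Jak2 wt 4 alone lay among the VD values. Differences of 0.23 for Jak1 (SE 0.20) and -0.42 for Tyk2 (SE 0.31) did not pass (edgeR adjusted p of 0.335 and 0.256). Jak1 passed at 0.48 with an offset for exon length (edgeR adjusted p = 0.00468), and Tyk2 at -0.70 without wt 6 (edgeR adjusted p = 0.0369). These 2 of 4 calls stand beside 60.0% of all genes that passed this comparison, and 24.5% of all genes were lower and 35.4% higher in ZL libraries, so the share of the kinases was near the background. The median gene differed by 0.20 between the sets with TMM scaling and by 0.06 with DESeq2's size factors, under which Jak2 stood at -1.47, Jak3 at -0.93, Tyk2 at -0.59 and Jak1 at 0.08. Without the 3 libraries of lowest quality weight Tyk2 joined the calls, at -0.97 (edgeR adjusted p = 2.91e-05), while Jak2 and Jak3 stayed called at -0.95 and -0.97 and Jak1 stood at 0.05. In wt libraries alone the difference of Jak2 was -1.06 and lost its call (edgeR adjusted p = 0.112). Jak3 lost its call in 4 of 12 fits that left out 1 library, with an edgeR adjusted p of up to 0.0695. Markers of other cells also differed between the sets, in both directions. The summed level of 9 neutrophil genes was 562 to 1392 CPM in VD and 92.9 to 258 CPM in ZL libraries. That of 8 macrophage and dendritic cell genes was 238 to 308 CPM in VD and 354.5 to 993 CPM in ZL libraries, most of it from Lyz2 (mean of 318 CPM in wt libraries). In bulk RNA, fewer cells of a type and less RNA per cell cannot be told apart, and the part of such cells in the kinase values was not tested.

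The make-up of the family, which does not depend on how a library is scaled, was described by the percent of each kinase in the summed CPM per kb of all 4. In the VD set Jak1 made up 34.5, 35.0 and 32.3% of the family in wt libraries and 38.1, 37.9 and 36.2% in libraries labelled Jak1 KO. In the ZL set it made up 44.7, 55.7 and 45.8% in wt and 65.7, 57.8 and 60.5% in the others. The shares did not overlap between genotypes in either set, with the libraries labelled Jak1 KO higher in both. The mean share was 41.3 ± 9.02% in wt and 49.4 ± 13.4% in libraries labelled Jak1 KO (SD over 6 libraries each), a difference of 8.04 percentage points. An exact two-sided permutation of genotypes within sets gave p = 0.005, the smallest that its 400 relabelings allow, and 0.02 after adjustment for the 4 shares computed. Without the 3 libraries of lowest quality weight the difference was 5.53 points and its call was lost (exact permutation p = 0.233). That removal leaves Jak1 KO 5 as the only ZL library labelled Jak1 KO, and so few relabelings. The call was also lost when replicate 4, 5 or 6 of the libraries labelled Jak1 KO was left out, with differences of 6.95, 8.93 and 8.25 points (exact permutation, adjusted p of 0.14, 0.06 and 0.08). The share was higher in the library labelled Jak1 KO in 6 of 6 same-numbered pairs. Exact sign flips over those pairs gave p = 0.0312, the smallest they allow, and 0.125 after adjustment. Even at that smallest p the share could not pass on its own, so the flips cannot decide whether the call stands if the numbers pair the libraries.

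The shares of the other members did not pass. Jak2 differed by -3.19 points (exact permutation p = 0.24), Jak3 by -3.29 points (exact permutation p = 0.105) and Tyk2 by -1.56 points (exact permutation p = 0.275). Between the sets, Jak1 made up 35.7 ± 2.20% of the family in VD and 55.0 ± 8.32% in ZL libraries (SD over 6 libraries each), and Jak2 21.0 ± 1.54% and 11.3 ± 6.20%. These differences between sets were not tested.

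**Figure D3:**
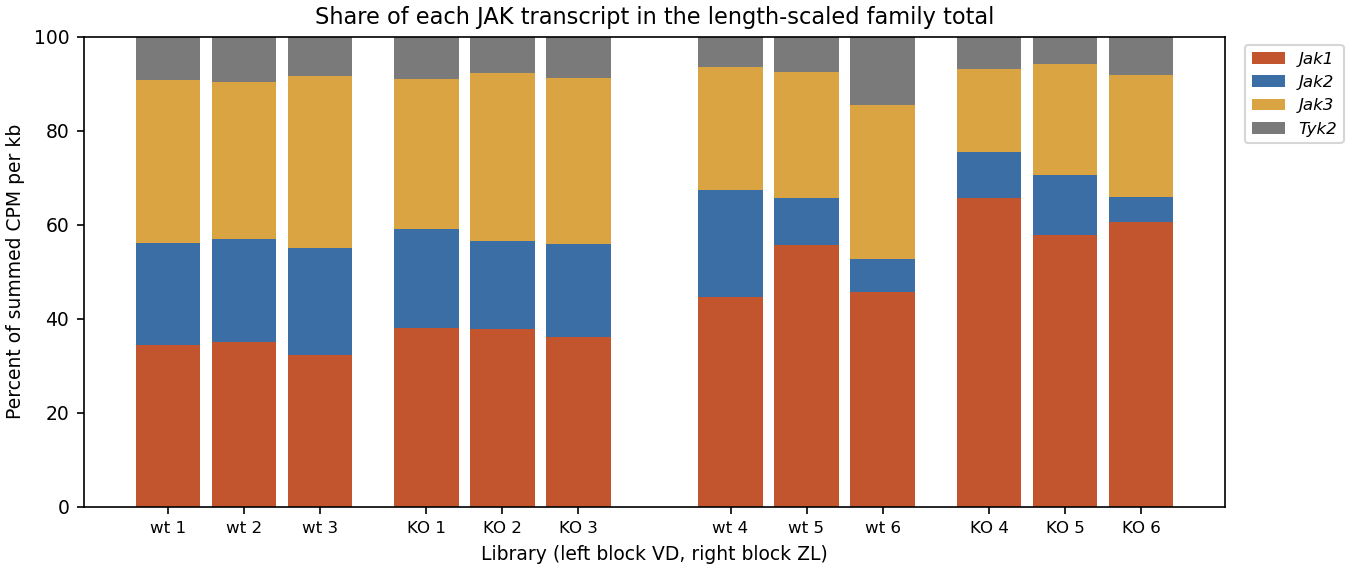
Percent of each JAK kinase in the summed CPM per kb of the family (vertical axis) in each of the 12 libraries (horizontal axis, VD libraries in the left block and ZL libraries in the right, wt before those labelled Jak1 KO in each). The Jak1 part of the bars runs from 32.3% to 38.1% in the VD block and from 44.7% to 65.7% in the ZL block, and within each block the 3 bars of the libraries labelled Jak1 KO have the larger Jak1 parts.

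Ratios of CPM between members are likewise free of library scaling. Of the 6 pairs, Jak1 over Jak3 was higher in the libraries labelled Jak1 KO by 0.43 on the log2 scale and Jak1 over Tyk2 by 0.47 (exact permutation within sets, p = 0.01 and adjusted p = 0.03 for both). Among ZL libraries Jak1 over Jak3 was 1.89 to 2.82 in wt libraries and 3.16 to 5.00 in the others, without overlap, and in the VD set 1.19 to 1.42 and 1.38 to 1.61, with overlap. Jak1 over Tyk2 was 3.81 to 4.11 in wt VD and 4.32 to 5.23 in the VD libraries labelled Jak1 KO, without overlap, and overlapped in the ZL set. Jak1 over Jak2 differed by 0.54 and did not pass (exact permutation, adjusted p = 0.22), while the 3 ratios without Jak1 differed by -0.11 to 0.04 (exact permutation, adjusted p = 0.885). Without the 3 libraries of lowest quality weight the differences were 0.27 for Jak1 over Jak3 and 0.35 for Jak1 over Tyk2, and both lost their calls. That removal leaves Jak1 KO 5 as the only ZL library labelled Jak1 KO. The few relabelings that remain do not let a ratio pass on its own after adjustment, so they cannot decide whether the calls stand. The calls of both pairs were lost in 8 of 12 fits without 1 library. Both ratios were higher in the library labelled Jak1 KO in 6 of 6 same-numbered pairs. Exact sign flips gave each the smallest p they allow (p = 0.0312, adjusted p = 0.0938), so these flips cannot decide whether the calls stand.

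The kinases varied together to different degrees. After subtraction of the mean of each name set, log2 CPM of Jak3 and Tyk2 had a Pearson correlation of 0.90 over the 12 libraries, Jak1 and Jak3 0.84, and Jak1 and Tyk2 0.72. Jak2 had lower values, at 0.53 with Jak3, 0.31 with Jak1 and 0.23 with Tyk2. These points share libraries, depth and the length trend given above and serve as a description. Without Jak1 KO 4 the values were 0.86 for Jak3 and Tyk2, 0.66 for Jak1 and Jak3, 0.02 for Jak2 and Jak3, and -0.27 for Jak2 and Tyk2. Leaving out wt 6 and Jak1 KO 6 as well changed this order, with Jak2 and Jak3 the highest pair at 0.81, then 0.71 for Jak3 and Tyk2, 0.68 for Jak2 and Tyk2, 0.56 for Jak1 and Jak3, 0.45 for Jak1 and Jak2, and 0.32 for Jak1 and Tyk2, so the order of the pairs rests on these libraries.

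Among 10264 genes of at least 5 mean CPM, those whose set-centred pattern was most like Jak2 included Fam168b, Gramd4 and the tankyrase gene Tnks2, with Pearson correlations of 0.98 over 12 libraries. Fam168b had 146 CPM in wt 4, above its 47.0 to 86.5 CPM in the other 5 ZL libraries and below all 6 VD libraries, the highest of which had 304 CPM. The nearest to Jak1 were Rbl2, a pocket protein of the retinoblastoma family, and the bromodomain gene Brd2 (both 0.95), then the clock gene Cry2 and the kinase gene Map3k4 (both 0.94). Without the 3 libraries of lowest quality weight these 4 had correlations of 0.39 to 0.65 with Jak1, and the 3 named for Jak2 had 0.96 to 0.98 with it. Those nearest to Jak3 were Specc1l (0.99), Rab8b, Sgpl1 and Ppip5k2 (each 0.98), and those nearest to Tyk2 were Znfx1, Actr1a, Tfr2 and Myo18a (each 0.99). Correlations of 0.9 or more were held by 39 genes with Jak1, 105 with Jak2, 852 with Jak3 and 1046 with Tyk2.

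The receptors that the kinases serve were present at a wide range of levels and did not pass the genotype test. Of 18 chains of receptors that use JAK1 14 were tested and 0 passed in edgeR, 1 with an unadjusted p under 0.05, as 5.06% of all genes tested had (median log2 fold change 0.01, against -0.01 over all genes tested). In wt libraries, per exon length, the interferon gamma receptor chain Ifngr1 had 43.0 CPM per kb, the type I interferon receptor chains Ifnar2 and Ifnar1 27.0 and 14.5, and Il6st, the gp130 chain, 3.85. Their log2 fold changes were 0.11 (SE 0.15), 0.12 (SE 0.15), -0.14 (SE 0.23) and -0.15 (SE 0.33). Lifr, the receptor for leukaemia inhibitory factor, was the one chain called by DESeq2 (-2.06, adjusted p = 0.0181), at a level of 1.31 ± 0.263 CPM in wt and 0.320 ± 0.284 CPM in libraries labelled Jak1 KO, but edgeR did not call it (-2.08, SE 0.55, adjusted p = 0.248). Il27ra, the interleukin 27 receptor chain, was next by p (-0.29, edgeR adjusted p = 0.945).

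The common gamma chain receptors use JAK1 with JAK3. Only 3 of the 7 genes for their chains had enough counts to be tested. Of these, 0 passed in edgeR or DESeq2, with 0 at an unadjusted p under 0.05 in edgeR. The common gamma chain itself, Il2rg, was at 57.8 ± 23.5 CPM per kb in wt libraries (log2 fold change 0.05, SE 0.17), above Jak3 at 41.0 ± 9.95 CPM per kb in the same libraries. The interleukin 21 receptor Il21r had a log2 fold change of 0.41 (edgeR adjusted p = 0.945). Il2ra, Il2rb and Il7r, the chains for interleukins 2, 15 and 7, had means of 0.0934, 0.114 and 0.418 CPM in wt libraries and were below the filter.

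Of 15 JAK2-coupled chains 11 were tested and 0 passed in edgeR or DESeq2, 2 with an unadjusted p under 0.05 in edgeR (median log2 fold change 0.10). Csf3r, the receptor for granulocyte colony-stimulating factor, was at 29.7 CPM per kb in wt libraries (log2 fold change -0.11, SE 0.24). The erythropoietin receptor Epor (-0.49) and Il12rb1 (-0.47), a chain of the interleukin 12 receptor that signals through TYK2 and JAK2, had the smallest p of the group (edgeR adjusted p of 0.767 and 0.877). Of 32 ligands of these receptors 8 were tested and 0 passed in edgeR or DESeq2, 1 with an unadjusted p under 0.05 in edgeR, with Il7 (-0.50) and Il27 (-0.73) the first by p (edgeR adjusted p of 0.943 and 0.945).

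Among the STAT genes below the kinases, Stat2, which carries type I interferon signals, had a log2 fold change of -0.68 (SE 0.33, edgeR adjusted p = 0.945). Stat3, Stat5a and Stat5b, which act under gp130 and haematopoietic cytokine receptors, had -0.30 (SE 0.23), -0.28 (SE 0.21) and -0.20 (SE 0.18), none past the threshold.

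Inhibitors of the pathway showed 1 call. None of the 8 SOCS genes passed in edgeR or DESeq2, and 2 had an unadjusted p under 0.05 in edgeR. The STAT3 target Socs3 was at 8.18 ± 3.33 CPM in wt libraries and 4.73 ± 1.58 CPM in those labelled Jak1 KO (-0.83, edgeR adjusted p = 0.818), Socs2 had 0.40 (edgeR adjusted p = 0.916) and Cish, an inhibitor induced by STAT5, 0.16 (SE 0.26). Of 16 other inhibitors and adaptors Usp18, which blocks type I interferon signalling at its receptor and is also among the interferon targets below, fell by 1.23 (SE 0.23, edgeR adjusted p = 0.0284). That call was lost in 7 of 12 fits that left out 1 library, namely replicate 1, 5 or 6 of wt or replicate 1, 2, 5 or 6 of the other group (edgeR adjusted p of up to 0.105). The phosphatase gene Ptpn6, at 95.9 CPM per kb in wt libraries, had 0.14 (SE 0.13), and Sh2b3, the adaptor LNK that restrains JAK2, had 0.03 (SE 0.30).

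Most of the called genes of the lists were interferon targets. Of 30 genes known as targets of interferon through STAT factors, 18 fell and 0 rose, against 0.432% of all genes lower and 0.00758% higher, all 30 had a fold change below 0, and the median log2 fold change was -1.23. The count of called targets was 23 in DESeq2 and 17 in edgeR without the 3 libraries of lowest quality weight. Examples are Iigp1, an interferon-inducible GTPase (-2.63, SE 0.19, edgeR adjusted p = 2.43e-05), Igtp, another of that family (-1.39, SE 0.15, edgeR adjusted p = 0.000369), and Irf9, the DNA-binding subunit of the interferon-induced factor ISGF3 (-1.35, SE 0.14, edgeR adjusted p = 0.00034). Iigp1 was at 97.0 ± 47.6 CPM in wt and 15.1 ± 6.34 CPM in libraries labelled Jak1 KO. Of 19 targets of STAT3 and STAT5, 0 passed in edgeR or DESeq2 (median -0.12) and 6 had an unadjusted p under 0.05 in edgeR. First by p was Bcl2, a survival gene, with -0.36 (SE 0.14, edgeR adjusted p = 0.818), and its relative Bcl2l1 had -0.50 (SE 0.19, edgeR adjusted p = 0.825). The other 4 of the 6 were Socs3, given above, and 3 with a fold change above 0, namely Socs2, the kinase gene Pim1 (1.07, SE 0.46, edgeR adjusted p = 0.902) and Id1, an inhibitor of basic helix-loop-helix factors (1.12, SE 0.45, edgeR adjusted p = 0.843). Beside these gene groups, 9 megakaryocyte and platelet markers were summed. Their level was 1358 to 1942 CPM in wt libraries and 696 to 919 CPM in those labelled Jak1 KO. Among single genes, 0.963% had every library labelled Jak1 KO below every wt library in both sets. Most of the sum came from Itga2b, Plek, Pf4 and Vwf (means of 547, 322, 276 and 266 CPM in wt libraries). Their means were 268, 156, 131 and 139 CPM in the other group. Gp9 and Ppbp were not lower there, with means of 51.5 and 10.7 CPM in wt libraries and 52.0 and 12.3 CPM in the others. The part of this sum in the values above was not tested.

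**Figure D4:**
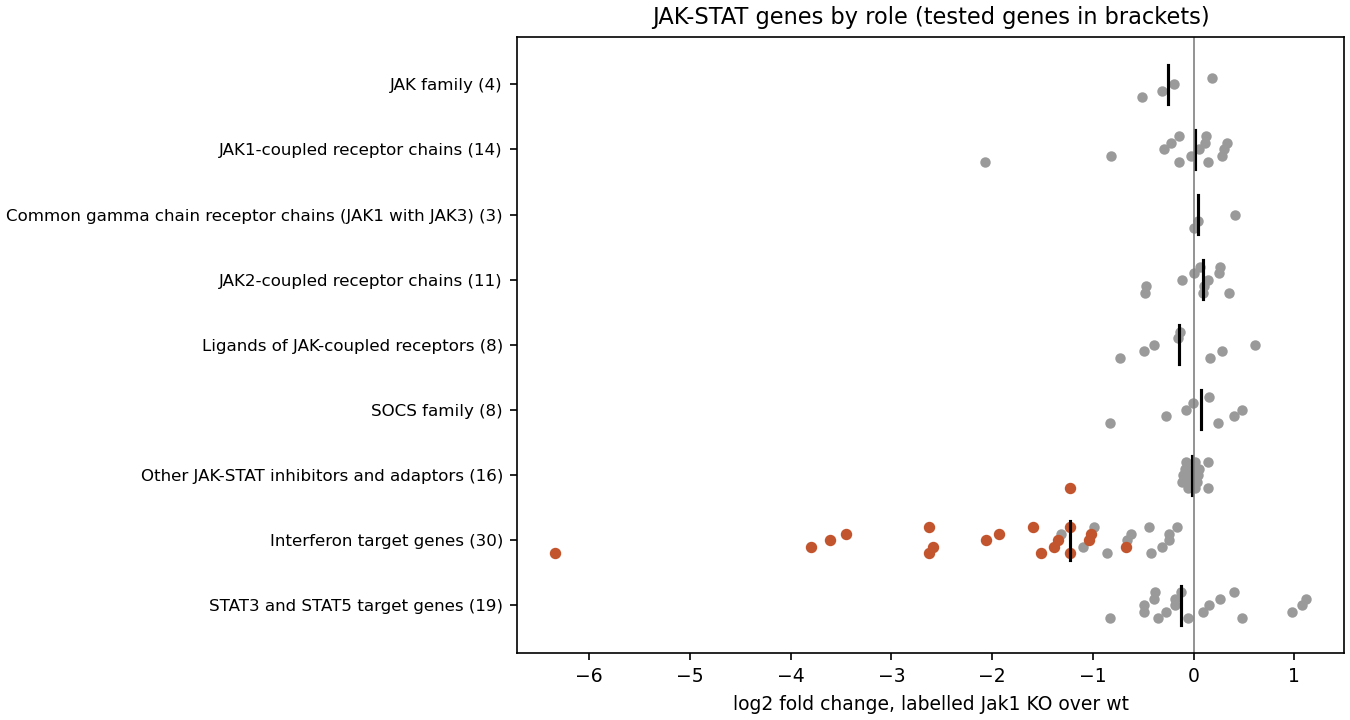
Log2 fold change (horizontal axis, labelled Jak1 KO over wt) of every tested gene of the JAK family and 8 lists of JAK-STAT genes, 1 point per gene, orange where the edgeR adjusted p is under 0.05 and grey otherwise, with a black bar at the median of each list. The interferon targets have their median at -1.23 with 18 orange points, Usp18 is the orange point of the other inhibitors and adaptors, and the 4 kinases lie between -0.51 and 0.18.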

How the data were processed

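Poly-A RNA (TRIzol extraction, TruSeq version 2 libraries, per the labels' protocols) of 12 LT-HSC samples was sequenced. The authors deposited raw read counts per gene, and per the submitters' processing notes their tools were STAR 2.3.0e, Subread and featureCounts, on mm10. Which annotation and strand setting they chose is not given in the sources used here. Groups came from the sample titles and name sets from the descriptions.

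The analysis used edgeR 4.0.16 under R 4.3.3: filterByExpr on genotype, TMM scaling, a term for name set and one for genotype, the quasi-likelihood F test, and Benjamini-Hochberg adjustment over all 13184 genes tested at 0.05. Normalised CPM uses TMM-scaled library sizes with Rn45s included, and log2 CPM a prior count of 2. Exon lengths came from GENCODE on GRCm38 (23105 of 23472 symbols matched, 1235 by an older symbol). On simulated counts of 12910 genes, with noise independent between genes, 5.11% of edgeR calls were on unchanged genes. No 2 libraries of the same genotype and name set agreed within counting noise (lowest chi-square per degree of freedom 14.2). Other pairs of libraries were not compared.

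Shares and ratios were tested by exact permutation within name sets, and neighbouring levels by exact sign flips over libraries. The members and the 10 pathway and 10 marker lists were chosen with earlier results of these data known. Genes were named by rule: the members, the 4 nearest to each by correlation, up to 3 called genes per list (or the 2 of smallest p), and a fixed set of receptors, STATs and inhibitors. A few genes this rule covers are left out here. Raver2, Insl3, 1700084C06Rik, Rn45s, the marker genes, Stat2, Bcl2l1, Pim1, Id1, Il2ra, Il2rb and Il7r were named outside that rule after their values were seen. The alternatives included DESeq2 1.42.0 and limma-voom (limma 3.58.1). The 3 libraries of lowest quality weight left out together, each name set alone for the order of levels, and sign flips over same-numbered libraries were added after the data were seen.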

Additional observations from a re-analysis of the deposited data

Results flagged for a closer look

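Jak1 in Jak1 KO 6 stood apart from its group. Its value was 727 CPM, while the other 5 libraries labelled Jak1 KO lay between 246 and 408 CPM, so that its gap to the next library was 0.662 of the range of the group, above the 95% critical value of 0.625 for 6 samples. It was the single one of 8 groups (4 kinases in 2 genotypes) with such a value. Chance alone gives about 1 in 20 groups where the libraries of a group share their level and spread. Each group here pooled VD and ZL libraries, in which the SD of Jak1 was 32.5 and 160 CPM, so that rate may not hold. Jak1 KO 6 had a quality weight of 0.359. Its deviation from the mean of the ZL set had a Spearman correlation with exon length of 0.45, the highest of the 12. Without it the log2 fold change of Jak1 was -0.046 (edgeR adjusted p = 0.914).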

How the results depend on the processing

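None of the 4 kinases passed the genotype test in edgeR, DESeq2 or limma-voom under the 14 alternatives that changed scaling, filter, tool, model or set of libraries, with adjusted p-values from 0.195 to 1. In VD libraries alone the log2 fold changes of Jak3 and Tyk2 changed sign, to 0.089 and 0.0015. Of all genes, 58 passed in edgeR, 126 in DESeq2, 220 in limma-voom, 14 with no term for name set, 149 in VD libraries alone, 0 in ZL libraries alone (226, or 1.63%, at an unadjusted p under 0.05) and 96 without the 3 libraries of lowest quality weight. Leaving those 3 out gave -0.97 for the set difference of Tyk2, 0 called genes among other inhibitors, 5.53 points for the Jak1 share, 0.27 and 0.35 for the ratios of Jak1 to Jak3 and Tyk2, and 0.37 for the step from Jak1 to Jak3. The set difference of Jak2 was -1.06 in wt libraries alone, and that of Jak1 was 0.48 with an offset for exon length (edgeR adjusted p = 0.00468). DESeq2 called 1 JAK1-coupled receptor chain. The step from Jak2 to Tyk2 was 0.30 with the longest transcript and 0.37 in ZL libraries alone, that from Jak1 to Jak3 0.041 in VD libraries alone, and the 3 steps in wt libraries alone 0.37, 0.97 and 0.85. The cause of these changes was not tested.

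Leaving out 1 library at a time, the log2 fold change ranged from -0.046 to 0.35 for Jak1, -0.61 to -0.089 for Jak2, -0.46 to 0.036 for Jak3 and -0.60 to -0.032 for Tyk2. The set difference ranged from 0.012 to 0.29 for Jak1, -1.02 to -0.70 for Jak3 and -0.70 to -0.30 for Tyk2, and the interaction from -0.57 to 0.22 for Jak1, -1.13 to 0.021 for Jak2, -1.17 to -0.13 for Jak3 and -1.30 to 0.017 for Tyk2. The Jak1 share difference ranged from 6.95 to 9.79 points. Log2 ratio differences ranged from 0.27 to 0.70 for Jak1 over Jak2, 0.32 to 0.50 for Jak1 over Jak3, 0.27 to 0.58 for Jak1 over Tyk2, -0.34 to 0.16 for Jak2 over Jak3, -0.43 to 0.30 for Jak2 over Tyk2 and -0.087 to 0.13 for Jak3 over Tyk2. The count of called inhibitors and adaptors ranged from 0 to 1, and that of called interferon targets from 12 to 19.

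Whether the replicate numbers pair the libraries is not stated. Deviations of same-numbered libraries correlated at 0.043 to 0.67, above 0.1 in 4 of 6 pairs, and 6 of 12 libraries correlated best with their own number, so the numbers were not taken as pairs, which would have needed a value above 0.1 in every pair. With the number as a replicate block the log2 fold changes were 0.11 for Jak1, -0.37 for Jak2, -0.29 for Jak3 and -0.35 for Tyk2, and 72 genes passed in edgeR. Sign flips over same-numbered pairs as the replicate block leave the differences at 8.04 points for the Jak1 share, 0.43 for Jak1 over Jak3 and 0.47 for Jak1 over Tyk2. None kept its call (exact permutation, adjusted p of 0.125, 0.0938 and 0.0938). Each was at the smallest p that the flips allow, so they cannot decide whether the calls stand. At 323 to 18258 counts per kinase and library, counting error was 0.740% to 5.56% of each value.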
